A study of Brassica napus with 2 samples.

Results

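The *IAA26* orthologs of *Brassica napus* are the 6 *Aux/IAA* genes whose *Arabidopsis* ortholog is AT3G16500 (*IAA26*). They were found by that assignment among the 119 *Aux/IAA* genes listed for the genome, of which 93 had expression values, in a table of 63193 genes. All 6 had values. The group itself was chosen by its FPKM values in these libraries, in which its members were lower with auxin, so the fold changes below describe the genes and are not a test of them. RNA was sequenced from 30-day-old *B. napus* seedlings in 2 libraries, each from 10 pooled seedlings: 1 library after 3 h in liquid medium with 1 μM of the auxin indole-3-acetic acid (IAA), and 1 control library after 3 h without IAA, for which the sample label names water. No mutant or transgene was involved. With 1 library per condition, no difference has a replicate check, and a pool of seedlings that differed for another reason cannot be told apart from a pool that responded to IAA. The comparison asks how each gene differed between seedlings with and without added auxin.

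Aux/IAA proteins are short-lived nuclear repressors. They bind auxin response factors, the transcription factors that act on auxin-responsive genes, and hold them inactive together with TOPLESS corepressors. Auxin joins the Aux/IAA degron to a TIR1/AFB receptor, the protein is ubiquitinated and degraded, and the response factors are released. Many *Aux/IAA* genes are themselves targets of those factors and are transcribed soon after auxin is given, which closes a negative feedback loop. In *Arabidopsis*, *IAA26* is also known as a phytochrome-associated protein, and its protein is bound by the replicase of tobacco mosaic virus.

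The 6 genes form 3 homeologous pairs, each with 1 copy from the A subgenome (An, derived from *B. rapa*) and 1 from the C subgenome (Cn, derived from *B. oleracea*). On the Darmor-*bzh* genome v4.2, *BnaA01.IAA.5* (BnaA01g27770D) lies on chromosome A01 from 19376258 to 19378066. Its homeolog *BnaC01R.IAA.3* (BnaC01g44160D) lies from 3745444 to 3747065 of the sequence assigned to chromosome C01 but not placed on it. *BnaA03.IAA.3* (BnaA03g34220D) lies on chromosome A03 from 16679803 to 16681289. Its homeolog *BnaC03.IAA.3* (BnaC03g39670D) lies on chromosome C03 from 24708650 to 24710343. *BnaA05.IAA.5* (BnaA05g23300D) lies on chromosome A05 from 17617660 to 17619557. Its homeolog *BnaC05.IAA.9* (BnaC05g36730D) lies on chromosome C05 from 35967179 to 35969048. The genes are alike in structure. Each has 5 exons, they span from 1487 bp to 1898 bp, and they encode 267 to 285 amino acids. All belong to subgroup B2 of the family, with the orthologs of *IAA18* and *IAA28*.

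All 6 *IAA26* orthologs were lower in the IAA library than in the control library. Values are FPKM, the fragments of a gene scaled to its transcript length and to the mapped fragments of the library, so that levels can be compared between genes. Beside each value stands the number of fragments estimated to lie behind it, from library depths that were themselves estimated as 18300000 fragments with IAA and 23700000 in the control. Fold changes are log2 of IAA over control after 0.1 FPKM was added to both, and their intervals are exact binomial (Clopper-Pearson) 95% intervals of the estimated fragments. These intervals cover counting error only and leave out any difference between pools of seedlings. In whole seedlings, fewer cells that express a gene and less RNA per cell cannot be told apart.

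*BnaA01.IAA.5* differed most. It was at 15.7 FPKM (293 fragments) with IAA, against 30.4 FPKM (734 fragments) in the control, a 1.93-fold lower level (log2 fold change -0.95, interval from -1.15 to -0.75). Its homeolog *BnaC01R.IAA.3*, the least expressed of the 6, was at 5.76 FPKM (96 fragments) with IAA and 9.46 FPKM (204 fragments) in the control, or 1.64-fold lower (log2 fold change -0.71, interval from -1.08 to -0.36). This pair therefore held both the largest log2 fold change and, through its Cn copy, the least precise one.

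*BnaC03.IAA.3*, the most highly expressed ortholog in both libraries, was at 36.1 FPKM (670 fragments) with IAA, against 53.3 FPKM (1280 fragments) in the control, 1.48-fold lower, with a log2 fold change of -0.56 and an interval from -0.70 to -0.42. *BnaA03.IAA.3* was at 12.6 FPKM (187 fragments) with IAA and 18.2 FPKM (350 fragments) in the control, 1.44-fold lower (log2 fold change -0.52, interval from -0.80 to -0.27). These homeologs stood at very different levels and differed between the libraries by nearly the same factor.

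The pair on A05 and C05 differed least. *BnaA05.IAA.5* was at 24.6 FPKM (491 fragments) with IAA and 31.2 FPKM (804 fragments) in the control, 1.27-fold lower (log2 fold change -0.34, interval from -0.50 to -0.17). *BnaC05.IAA.9* was at 31.4 FPKM (624 fragments) with IAA and 40.4 FPKM (1042 fragments) in the control, 1.29-fold lower (log2 fold change -0.37, interval from -0.51 to -0.22). For each of the 6 genes the counting interval lay below 0, as it did for 9.20% of the 87 other *Aux/IAA* genes. Genes outside the family were given no interval, since their transcript lengths were not used here, so that the share of all genes with such an interval was not computed. The intervals of the FPKM values come from the same estimated fragments. As these 6 genes were chosen for lower values with IAA, the place of their intervals is a description and no support for a difference.

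**Figure D1:**
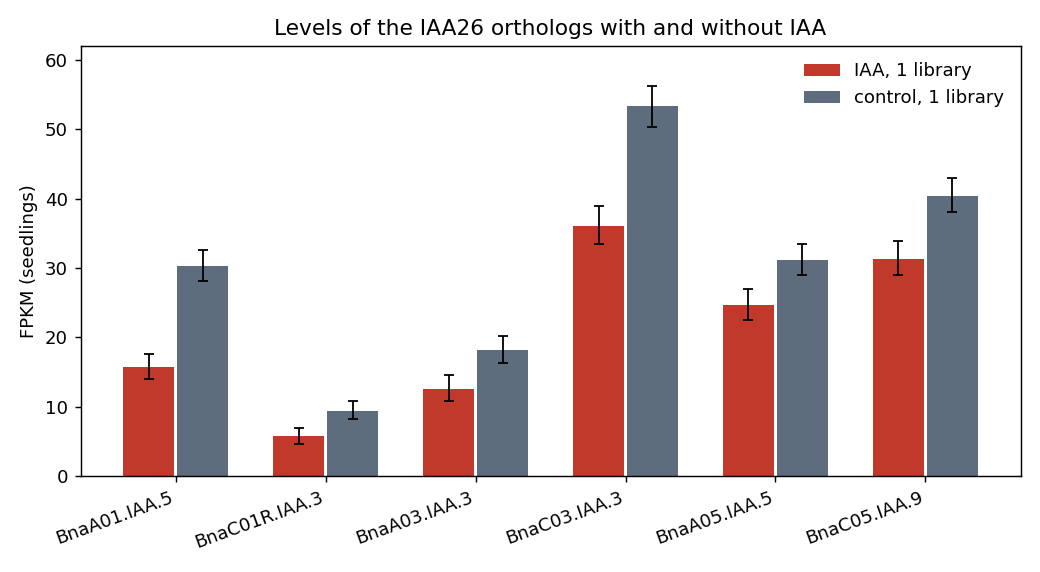
Level of each *IAA26* ortholog in FPKM in the IAA library (red, left) and the control library (grey, right), with 1 library per condition; error bars are exact Poisson 95% intervals of the estimated fragments and cover counting error only. Every red bar is lower than its grey neighbour, most clearly for *BnaA01.IAA.5*, at 15.7 FPKM with IAA and 30.4 FPKM in the control.

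The 6 genes kept the same order of levels in both libraries: *BnaC03.IAA.3*, *BnaC05.IAA.9*, *BnaA05.IAA.5*, *BnaA01.IAA.5*, *BnaA03.IAA.3* and *BnaC01R.IAA.3*, from highest to lowest. With IAA each gene was above the next by more than the counting error. In the control this held for all neighbours in the order but 1. *BnaA05.IAA.5* was 1.03 times as high as *BnaA01.IAA.5* there (interval of the ratio from 0.93 to 1.14), so that their levels did not differ beyond counting error. With IAA the ratio of these genes was 1.57 (interval from 1.36 to 1.82). *BnaA01.IAA.5* thus stood level with *BnaA05.IAA.5* in control seedlings and below it after IAA. In the order of all 93 *Aux/IAA* genes by FPKM, *BnaA01.IAA.5* was at place 41 with IAA and at place 20 in the control. *BnaC03.IAA.3* was at place 26 with IAA and at place 11 in the control. These places depend also on the other *Aux/IAA* genes, whose median log2 fold change was 0.67. The 5 genes on placed chromosomes were well expressed among all genes, between percentiles 81.4 and 93.5 of the FPKM values with IAA and between 86.5 and 96.0 in the control. *BnaC01R.IAA.3* was at percentile 66.9 with IAA and 75.6 in the control.

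The ratio of the homeologs differed little between the libraries in the A03/C03 and A05/C05 pairs and by more in the A01/C01R pair, where the intervals of both libraries overlapped. In the A01/C01R pair the An copy was the higher one, and the Cn copy stood at 0.37 of its level with IAA (interval from 0.29 to 0.46) and at 0.31 in the control (interval from 0.26 to 0.36). In the A03/C03 pair the Cn copy was the higher one, by 2.85 times with IAA (interval from 2.43 to 3.38) and by 2.92 times in the control (interval from 2.59 to 3.29). In the A05/C05 pair the Cn copy was also the higher one, by 1.27 times with IAA (interval from 1.13 to 1.43) and by 1.30 times in the control (interval from 1.18 to 1.42). The subgenome with the higher copy therefore was not the same in every pair, whereas its identity within a pair did not differ between the libraries.

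**Figure D2:**
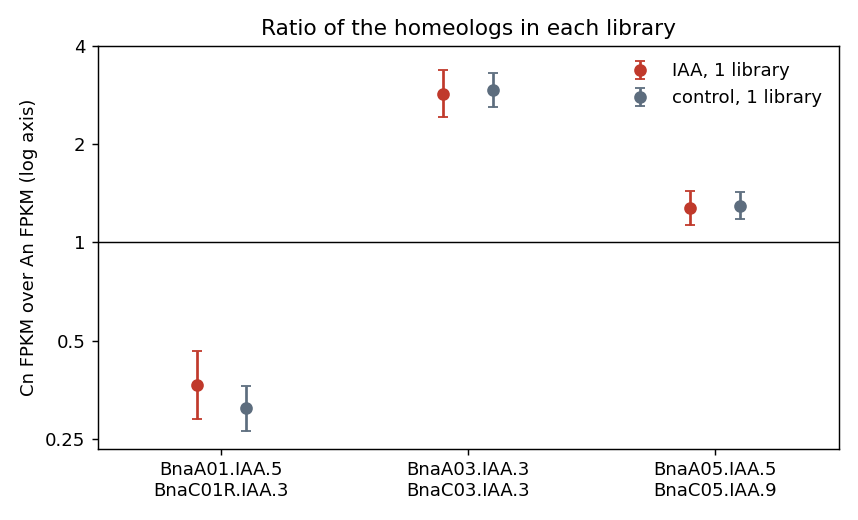
FPKM of the Cn copy over FPKM of the An copy, on a log axis, for each homeologous pair in the IAA library (red, left) and the control library (grey, right); error bars are exact binomial 95% intervals of the estimated fragments. The A01/C01R pair lies below 1 and the other pairs above 1, and within each pair the intervals of both libraries overlap.

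The log2 fold changes of the homeologs were set against each other as the ratio of the fragment ratios, in which the depths cancel. The exact conditional 95% intervals still rest on the estimated fragments, and so on the estimated depths. An minus Cn, the difference was -0.24 for the A01/C01R pair (interval from -0.65 to 0.18), 0.03 for the A03/C03 pair (interval from -0.27 to 0.33) and 0.03 for the A05/C05 pair (interval from -0.19 to 0.25). All 3 intervals included 0, and the widest left room for a difference of 0.65 in the A01/C01R pair. Cufflinks, which made the FPKM values, can share out fragments that fit both homeologs. How much of the likeness within pairs comes from this was not tested. For 24 other homeologous *Aux/IAA* pairs in which no copy was under 1 FPKM (a set made once the values were known) the homeologs differed in log2 fold change by a median of 0.25 (from 0.03 to 0.89), and in 12 of them by no more than in the most unequal *IAA26* pair.

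The pairs, with the fragments of both copies added up, differed from each other. The log2 fold change of the A01/C01R pair was lower than that of the A03/C03 pair by a difference of -0.34 (interval from -0.55 to -0.13) and lower than that of the A05/C05 pair by a difference of -0.54 (interval from -0.75 to -0.34). Between the A03/C03 and A05/C05 pairs the difference was -0.20 (interval from -0.36 to -0.04). Because the values of this contrast drew attention to the genes, the intervals describe the counting error of these 2 libraries and are not a test of the conditions.

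Summed over the 6 genes, the level of *IAA26* orthologs was 126 FPKM with IAA and 183 FPKM in the control, 31.0% lower. The An copies summed to 53.0 FPKM with IAA and 79.8 FPKM in the control, 33.6% lower. The Cn copies summed to 73.2 FPKM with IAA and 103 FPKM in the control, 29.0% lower. Both subgenomes thus contributed to the lower sum. The A01/C01R pair made up 17.0% of the summed level with IAA and 21.8% in the control, whereas the A05/C05 pair made up 44.4% with IAA and 39.2% in the control. The A03/C03 pair was at 38.6% with IAA and 39.1% in the control.

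How common such differences were in these libraries can be read from all genes. The median log2 fold change was -0.54 over the 6 genes, -0.13 over all 63193 genes and 0.67 over the 87 other *Aux/IAA* genes. All 6 *IAA26* orthologs were lower with IAA, as were 62.7% of all genes, 57.3% of the 21818 genes that reached 5 FPKM in both libraries, as all 6 genes did (a minimum set once the values were known), and 23.0% of the 87 other *Aux/IAA* genes. All 6 were at least 20% lower, against 33.9% of all genes, 15.0% of the genes with at least 5 FPKM and 13.8% of the other *Aux/IAA* genes. None was at least 2-fold lower, against 8.68% of all genes, 0.853% of the genes with at least 5 FPKM and 1.15% of the other *Aux/IAA* genes. Among the genes with at least 5 FPKM, *BnaA01.IAA.5* lay at percentile 1.04 of the log2 fold changes and *BnaC01R.IAA.3* at percentile 2.59. *BnaC03.IAA.3* lay at percentile 4.86, *BnaA03.IAA.3* at 5.50, *BnaC05.IAA.9* at 11.8 and *BnaA05.IAA.5* at 13.7. All 6 therefore lay below the lower quartile of genes at that level, which was -0.22. The A05/C05 copies were nearest to that quartile, and the A01/C01R copies lay near the lower edge of the set. When the IAA library was centred on the median of genes that reached 1 FPKM in both, which shifts every log2 fold change by 0.09, all 6 genes were still lower, against 42.9% of the genes with at least 5 FPKM and 54.1% of all genes. The number at least 20% lower was then 4, because *BnaA05.IAA.5* and *BnaC05.IAA.9* came to -0.25 and -0.28, against 27.9% of all genes, 9.59% of the genes with at least 5 FPKM and 10.3% of the other *Aux/IAA* genes.

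**Figure D3:**
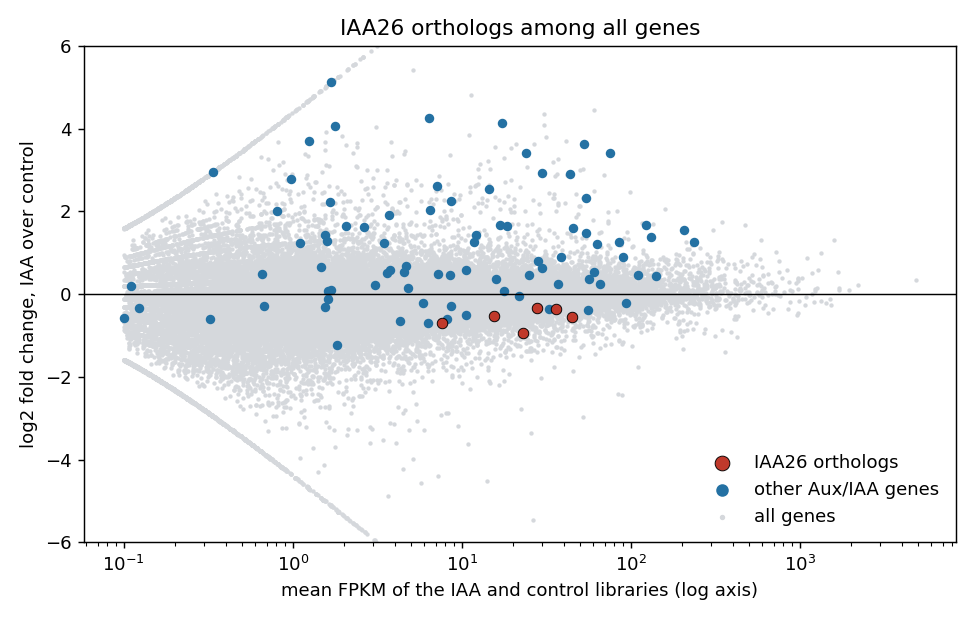
Log2 fold change (IAA over control, 0.1 FPKM added) against the mean FPKM of both libraries on a log axis, for genes with a mean of at least 0.1 FPKM and within the range shown; red points are the 6 *IAA26* orthologs, blue points other *Aux/IAA* genes and grey points all genes. The red points lie between -0.95 and -0.34, whereas most blue points lie above 0.

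Within the *Aux/IAA* family the *IAA26* orthologs stood on the lower side. Of the 75 other *Aux/IAA* genes that reached 1 FPKM in either library, 13 were lower with IAA, 7 of them by at least 20%. The counting interval lay below 0 for 8 of all 87 other genes. The 6 genes supplied 3.75% of the summed FPKM of the family with IAA and 10.6% in the control. The share depends on both parts of the family, since the other *Aux/IAA* genes summed to 3243 FPKM with IAA and 1548 FPKM in the control. The family ran from *BnaA04.IAA.1*, an *IAA8* ortholog at 1.06 FPKM with IAA and 2.61 FPKM in the control (log2 fold change -1.22, interval from -2.00 to -0.65), to *BnaA09R.IAA.1*, an *IAA5* ortholog at 3.37 FPKM with IAA and listed at 0 in the control. Nearest to the median of the 6 genes among those that reached 1 FPKM in both libraries were *BnaC06.IAA.1* (log2 fold change -0.51), *BnaC04.IAA.2* (-0.60) and *BnaA08.IAA.1* (-0.65). *BnaC04.IAA.2* is an ortholog of *IAA8*, and the others are orthologs of *IAA18*. Likeness here is the distance in log2 fold change over 2 libraries only.

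The other genes of subgroup B2 were the closest relatives with values. *IAA18* and *IAA28* act in *Arabidopsis* root development, where stabilised forms of either protein reduce lateral roots. The 9 other B2 genes had a median log2 fold change of -0.37, and 6 of them were lower with IAA, 5 by at least 20%. This median was -0.19 with 1 FPKM added in place of 0.1 FPKM and -0.24 over the genes that reached 1 FPKM in either library. The *IAA28* orthologs were not alike. *BnaC07.IAA.3* was at 48.2 FPKM with IAA and 63.3 FPKM in the control (log2 fold change -0.39, between -0.56 and -0.23), and its homeolog *BnaA06.IAA.5* was at 28.7 FPKM with IAA and 37.0 FPKM in the control (-0.37, interval from -0.58 to -0.16). *BnaA09.IAA.1*, at 5.76 FPKM with IAA and 3.57 FPKM in the control (0.67, interval from -0.01 to 1.39), and its homeolog *BnaC09.IAA.1*, at 8.48 FPKM and 5.99 FPKM (0.50, interval from -0.01 to 1.01), had higher values with IAA. Each interval reached only just below 0. The fragments of these homeologs were not added up, as was done for the *IAA26* pairs, so a higher level of the pair was not tested.

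Among the *IAA18* orthologs, *BnaC06.IAA.1* was at 8.75 FPKM with IAA and 12.5 FPKM in the control (log2 fold change between -0.81 and -0.23). *BnaA08.IAA.1* was at 3.35 FPKM with IAA and 5.31 FPKM in the control (between -1.08 and -0.28). *BnaC03R.IAA.1*, at 1.55 FPKM with IAA and 1.69 FPKM in the control, and *BnaC06.IAA.3*, at 5.02 FPKM with IAA and 4.55 FPKM in the control, had intervals on both sides of 0. The fifth, *BnaA06.IAA.2*, was under 1 FPKM in both libraries. The *IAA26* orthologs, chosen for lower values with IAA, were thus uniform in direction. The *IAA18* and *IAA28* orthologs had values on both sides of 0. Taken gene by gene, those among them whose intervals excluded 0 were all lower with IAA. Those with higher values had intervals that included 0, only just so for *BnaA09.IAA.1* and *BnaC09.IAA.1*. Whether the sets differ could not be tested with 1 library per condition.

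**Figure D4:**
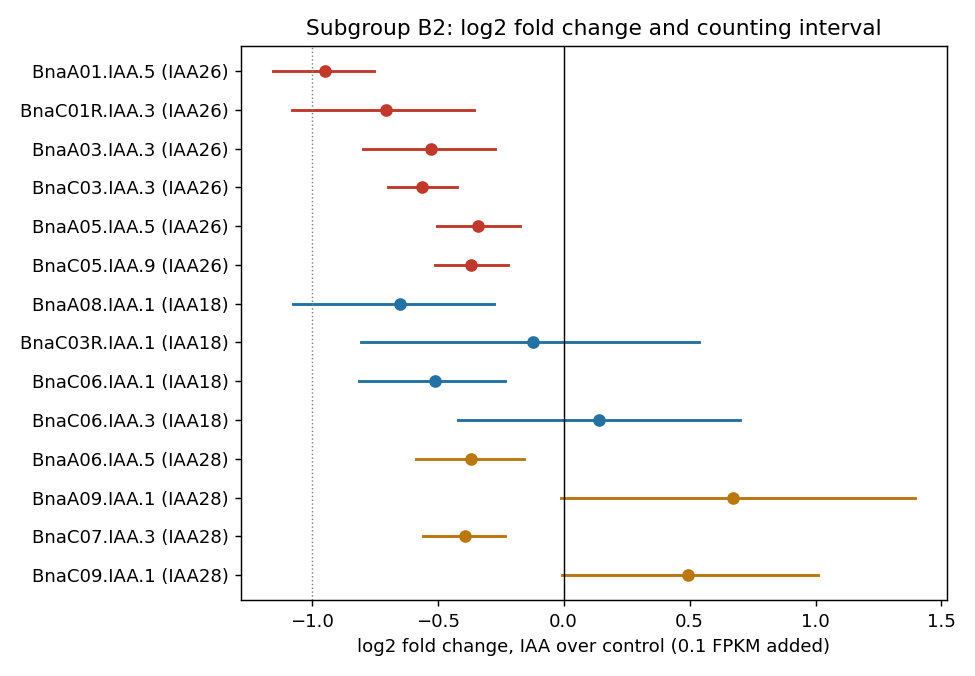
Log2 fold change (points) of the *IAA26* orthologs (red), followed by the *IAA18* orthologs (blue) and *IAA28* orthologs (orange) that reached 1 FPKM in either library; bars are exact binomial 95% intervals of the estimated fragments, the solid line marks no difference and the dotted line a 2-fold lower level. All 6 red intervals lie below 0, as do 4 of the 8 others, and the remaining 4 lie on both sides of it.

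The genes next to the *IAA26* orthologs in identifier order, 5 on each side among those with values, give the values of their surroundings. On the unplaced sequence of C01 this order need not be the order on the chromosome. Of these 60 genes, 42 reached 1 FPKM in either library. Their median log2 fold change was -0.12, 30 were lower with IAA and 10 at least 20% lower, and 8 had a lower log2 fold change than the *IAA26* ortholog beside them. Of all genes, with no minimum level, 62.7% were lower and 33.9% at least 20% lower. Beside *BnaA01.IAA.5* all 8 such neighbours were lower, and beside *BnaC01R.IAA.3* all 5. The numbers were 4 of 6 beside *BnaA03.IAA.3*, 2 of 7 beside *BnaC03.IAA.3*, 7 of 8 beside *BnaA05.IAA.5* and 4 of 8 beside *BnaC05.IAA.9*. The neighbours of *BnaA01.IAA.5* had a median of -0.18, and those of *BnaC01R.IAA.3* a median of -0.16. The medians were -0.04 beside *BnaA03.IAA.3*, 0.24 beside *BnaC03.IAA.3*, -0.14 beside *BnaA05.IAA.5* and -0.004 beside *BnaC05.IAA.9*. Each *IAA26* ortholog was thus lower than the median of its neighbours. This largely follows from the choice of genes that were lower with IAA. Whether a stretch of chromosome shared the lower levels was not tested.

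With 0.1 FPKM added to both values, 3 of the 42 neighbours were at least 2-fold different, and the files do not pair them with gene names. BnaA01g27810D, near *BnaA01.IAA.5*, was at 3.45 FPKM with IAA and 14.1 FPKM in the control (log2 fold change -2.00). BnaA03g34140D, near *BnaA03.IAA.3*, was at 0.54 FPKM with IAA and 1.45 FPKM in the control (-1.29). BnaA05g23260D, near *BnaA05.IAA.5*, was at 3.21 FPKM with IAA and 0.45 FPKM in the control (2.60). BnaA05g23330D, also near *BnaA05.IAA.5*, was at 0.954 FPKM with IAA and 2.004 FPKM in the control, which is past 2-fold as deposited and just under it with 0.1 FPKM added. None of these 4 genes lay beside a Cn copy.

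**Figure D5:**
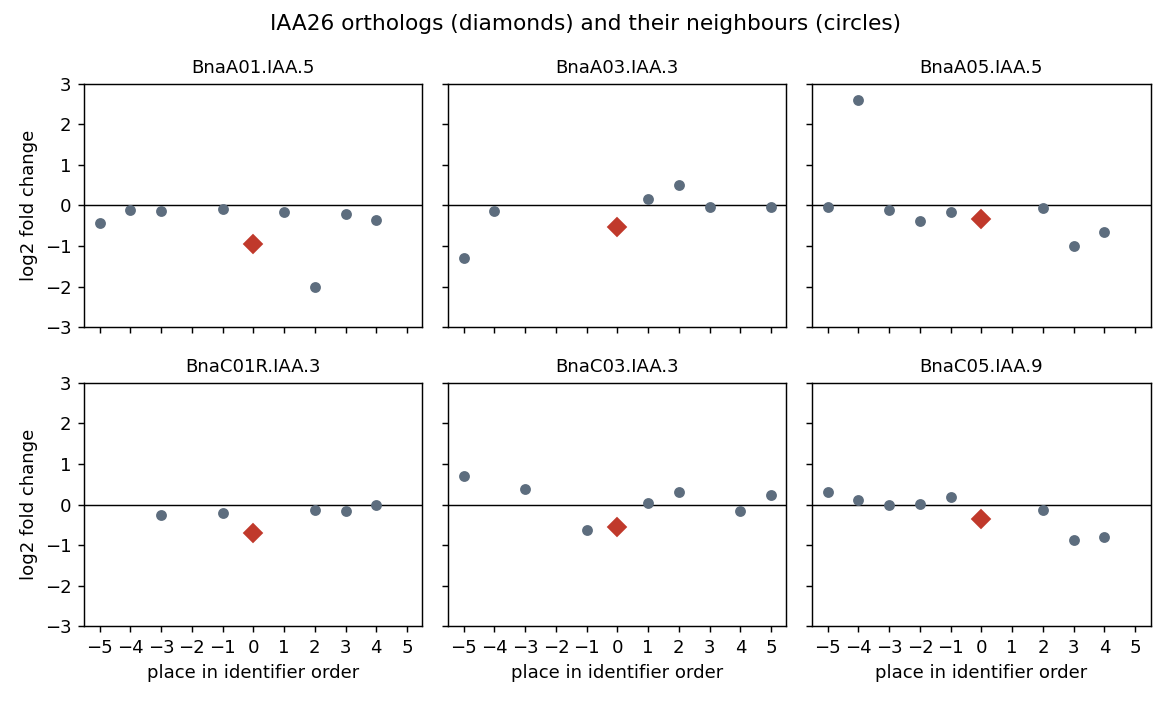
Log2 fold change (IAA over control) of each *IAA26* ortholog (red diamond, place 0) and of the genes up to 5 places before and after it in identifier order that reached 1 FPKM in either library (grey circles), with the An copies above and the Cn copies below. The medians of the circles lie between -0.18 and 0.24, above the diamond in each panel.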

How the data were processed

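RNA from 1 pool of 10 seedlings per condition was sequenced from TruSeq libraries on the HiSeq3000. HISAT2 v2.0.4 placed the reads on Darmor-*bzh* v4.2. The authors deposited gene FPKM made by Cufflinks v2.2.1, and the submitters' processing notes also name bcl2fastq v2.18. The depth per library is not given in the sources used here. It was estimated, with the mean fragment length (195 bp in both libraries), as the values that turn *Aux/IAA* FPKM under 0.3 into whole fragments. The transcript lengths for this were derived from the positions and lengths in the gene list of the study. The fit used 7 genes with IAA and 10 in the control. All 17 and 23 genes with up to 20 fragments then lay within 0.1 of a whole fragment. The ratio of these depths was 1.30, and the ratio most frequent among 5083 low genes was 1.29. No p-value was computed, since each condition has 1 library. Gene names, positions, *Arabidopsis* orthologs and subgroups came from the gene lists of the study. The named genes were the 6 members, the 3 *Aux/IAA* genes nearest to their median, the other B2 genes with at least 1 FPKM, the extremes of the family and neighbours at least 2-fold different. Members and lists were chosen with earlier results of these data known. Alternatives tried were a pseudocount of 1 or 0.01 FPKM, a minimum level, centring, upper quartile scaling, leaving out a pair, and other fragment lengths and depth ratios. Receptors, response factors and other auxin genes were not analysed here, since the reference table of the Da-Ae assembly holds none of the identifiers in the files. Python 3.11.15, numpy 2.4.6, pandas 2.3.3, scipy 1.17.1 and matplotlib 3.10.9 were used.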

Additional observations from a re-analysis of the deposited data

How the results depend on the processing

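No paired analysis was possible because only a single library stands for each condition. The log2 ratio of the summed FPKM of the 6 *IAA26* orthologs, -0.54, was -0.45 after centring, -0.45 without the A01/C01R pair and -0.67 without the A05/C05 pair, the pairs with the largest and smallest differences. The number of genes lower with IAA was 6 under every pseudocount, filter and scaling that was run. A pseudocount added to both values cannot change a direction, and the filter cannot remove genes at these levels. Upper quartile scaling shifted the log2 fold changes by only -0.005, so only centring moved them by more. The number at least 20% lower was 6 except for 4 after centring, when 27.9% of all genes and 9.59% of those with at least 5 FPKM in both libraries were. The median log2 fold change lay between -0.63 and -0.45. All 30 recomputed log2 fold changes of single genes stayed below 0 and within their counting intervals, although the filter cannot change a gene's own value, nor a pseudocount its direction. The upper ends of the intervals stayed below 0 in all 18 recomputations with other fragment lengths or another depth ratio. The other ratio, 1.29 in place of 1.30, was close to the one used, so this is a weak check of the estimated depths. Depth limits *BnaC01R.IAA.3* most, with 96 estimated fragments with IAA.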

Other observations

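Lower levels with IAA were not restricted to the *IAA26* orthologs among the *Aux/IAA* genes. Of 24 sets of *B. napus* genes that share an *Arabidopsis* ortholog and hold at least 1 gene with 1 FPKM, 5 had a lower summed FPKM with IAA: the orthologs of *IAA8*, *IAA18*, *IAA26*, *IAA27* and *IAA28*. In 3 of these, *IAA8*, *IAA26* and *IAA27*, every gene at that level was lower. The sums run over unequal numbers of genes with values: 6 for *IAA26*, 5 for *IAA18*, 4 for *IAA28* and 2 each for *IAA8* and *IAA27*. Without allowance for this, the sum over *IAA26* orthologs was larger than that of the other 4 sets in both libraries, at 126 FPKM with IAA and 183 FPKM in the control. The *IAA28* orthologs followed, at 91.1 FPKM with IAA and 110 FPKM in the control, and the *IAA18* orthologs were at 18.9 FPKM with IAA and 24.5 FPKM in the control. The *IAA27* orthologs summed to 12.6 FPKM with IAA and 17.3 FPKM in the control, and the *IAA8* orthologs to 7.54 FPKM with IAA and 12.5 FPKM in the control. These sets were grouped after the values had been seen, and no test of the conditions is possible for them.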
